A study of Homo sapiens with 21 samples.

Results

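The genes described here are 40 genes of fatty acid oxidation and of its PPAR and PGC-1 regulators, taken by name from a table of mRNA counts with 23368 features. They comprise 4 acyl-CoA synthetases, 4 acyl-CoA thioesterases, 5 genes of the carnitine shuttle, 7 acyl-CoA dehydrogenases, 7 genes of the later mitochondrial steps, 3 electron transfer genes, 5 peroxisomal genes and 5 regulators. HK-2, a human cell line immortalised from proximal tubule epithelium, was given 5 µg/mL cyclosporine A for 48 h (4 mRNA and 4 miRNA libraries) or 0.1% ethanol as vehicle for 48 h (4 mRNA and 4 miRNA libraries). RNA bound to the miRNA effector protein AGO2 was mapped by PAR-CLIP, in which 4-thiouridine (100 µM) in RNA is crosslinked to protein at 365 nm (0.15 J/cm2), after 24 h of cyclosporine A (2 libraries) or of vehicle (2 libraries). A further PAR-CLIP library, for which all Argonaute proteins were precipitated together, has no treatment in its labels. All cells grew in keratinocyte serum-free medium with epidermal growth factor and pituitary extract. The study used 1 cell line. Because the labels do not tell whether each library had its own culture, the p-values speak only for the variation among these libraries, and part of it may be technical.

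Cyclosporine A is an immunosuppressant that binds cyclophilins and thereby blocks the phosphatase calcineurin, and it can injure the kidney. Proximal tubule cells draw much of their energy from fatty acids in the kidney. A fatty acid is first joined to coenzyme A, then carried into the mitochondrion as a carnitine ester, and shortened there in repeated rounds of dehydrogenation, hydration, oxidation and thiolysis; peroxisomes shorten very long and branched chains. The nuclear receptors PPARα, PPARδ and PPARγ, bound by fatty acids, switch on many of these genes together with RXR partners, and PGC-1α and PGC-1β are coactivators that raise their activity.

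PPAR and RXR bind DNA as a pair at a direct repeat of AGGTCA spaced by a single base. Promoters are shown for *CPT1A*, the member with the largest rise, and for *PPARG* and *ACSL5*, which rose by nearly the same amount. Each is the 250 bases before a RefSeq transcript start, from RefSeq on GRCh38.p14, with AGGTCA in capitals. Where a gene had several starts, the first stretch holding AGGTCA was printed, so the matches shown for *PPARG* and *ACSL5* follow from that choice. At some other starts of *PPARG* and at the other start of *ACSL5* there was none. The only *PPARGC1B* window with an entry, chr5:149771690-149771989 (plus strand), not shown, had none either. It lies downstream of miR-378a-3p (chr5:149732867-149732888), which is encoded within *PPARGC1B*. The start of that gene upstream of miR-378a-3p was therefore not searched. The windows are chr11:68844278-68844527 (minus strand) for *CPT1A*, chr3:12287118-12287367 (plus strand) for *PPARG* and chr10:112375018-112375267 (plus strand) for *ACSL5*.
*CPT1A*: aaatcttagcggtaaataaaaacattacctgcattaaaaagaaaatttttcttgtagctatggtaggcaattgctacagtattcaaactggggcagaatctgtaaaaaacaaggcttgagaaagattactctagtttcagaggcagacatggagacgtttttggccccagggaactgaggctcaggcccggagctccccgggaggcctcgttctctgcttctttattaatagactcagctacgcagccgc
*PPARG*: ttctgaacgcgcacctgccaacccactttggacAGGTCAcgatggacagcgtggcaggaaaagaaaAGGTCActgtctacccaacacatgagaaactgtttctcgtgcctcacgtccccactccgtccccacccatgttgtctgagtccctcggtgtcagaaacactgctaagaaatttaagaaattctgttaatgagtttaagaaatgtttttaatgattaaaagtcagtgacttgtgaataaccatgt
*ACSL5*: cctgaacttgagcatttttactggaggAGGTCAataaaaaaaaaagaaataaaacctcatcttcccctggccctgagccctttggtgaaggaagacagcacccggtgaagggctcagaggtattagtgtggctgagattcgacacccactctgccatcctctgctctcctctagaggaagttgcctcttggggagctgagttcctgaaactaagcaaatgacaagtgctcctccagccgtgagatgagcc
AGGTCA began, on the printed strand, 217 and 184 bases before the *PPARG* start and 223 bases before the *ACSL5* start, and *CPT1A* had none on either strand in its window. RefSeq windows, from 250 bases before to 50 after a start, were matched for 32 of the 40 members; *CRAT*, *DECR2*, *ETFDH*, *ECH1*, *ACAD11*, *EHHADH*, *ACAA1* and *DECR1* had no entry. AGGTCA on either strand was found in 4 of the 32 (12.5%), namely *ACOT7*, *ACAD10*, *PPARG* and *ACSL5*, against 16.5% of all 27305 genes with a window. The spaced repeat AGGTCANAGGTCA, in which N is any base, was in 0 of the members' windows and in 8 of all 35116 windows (0.0228%). A match or its absence describes these windows only.

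The miRNAs named below are printed from RefSeq (GRCh38.p14) with their seed, bases 2 to 8, in capitals, since the seed pairs with target mRNAs.
miR-27a-3p: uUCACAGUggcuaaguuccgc
miR-27b-3p: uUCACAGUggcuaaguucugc
miR-23a-3p: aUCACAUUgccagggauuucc
miR-23b-3p: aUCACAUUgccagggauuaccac
miR-33a-5p: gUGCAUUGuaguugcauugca
miR-378a-3p: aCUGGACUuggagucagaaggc
miR-181a-5p: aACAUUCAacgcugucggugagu
miR-181b-5p: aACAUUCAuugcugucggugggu
The pairs miR-27a and miR-27b, miR-23a and miR-23b, and miR-181a and miR-181b each share a seed. In the AGO2 lists, a cluster at the 3′ end of *CPT1A* (transcript end of NM_001876, minus strand, hg19) held TGAATGT, the complement of the miR-181 seed, shown in capitals. It ran from chr11:68522380-68522402 with cyclosporine A and from chr11:68522380-68522401 with vehicle.
*CPT1A*, cyclosporine A: cagtgTGAATGTaggttatcatt
*CPT1A*, vehicle: agtgTGAATGTaggttatcatt

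Total mRNA counts ranged from 3965431 to 5001669 with cyclosporine A and from 4289120 to 7041604 with vehicle, and 12855 genes passed the filter on low counts. Of the defining proximal tubule genes, *SLC22A6*, *SLC22A8* and *HNF4A* had 0 counts in all libraries and *LRP2*, *CUBN* and *AQP1* averaged under 1 CPM in both groups (CPM, counts scaled to library size); 6 of 16 proximal tubule markers were tested, of which *MME* rose and 4 fell, and the list summed to 360.0 to 373 CPM with cyclosporine A and to 338 to 363 CPM with vehicle. Adipocyte markers, relevant to PPARγ, summed to 7.82 to 11.7 CPM with cyclosporine A and to 11.9 to 14.7 CPM with vehicle, with *ADIPOQ* and *FABP4* at 0. Markers of fibroblasts, of which 3 of 7 were tested and fell, summed to 108 to 127 CPM with cyclosporine A and to 359 to 403 CPM with vehicle, with *COL1A2* and *PDGFRA* at 0. Markers of distal and collecting tubule, of which 2 of 8 were tested and fell, summed to 625 to 660.5 CPM with cyclosporine A and to 1108 to 1247 CPM with vehicle, nearly all from *SCNN1A*. Hepatocyte markers, of which 1 of 6 was tested and fell (*SERPINA1*, log2 fold change -1.81 ± 0.06), summed to 271 to 307 CPM with cyclosporine A and to 943 to 1035 CPM with vehicle, with 3 at 0. Of 6 immune markers *CD68* rose and *CD14* fell, with *PTPRC* at 0, and 5 endothelial markers summed to at most 0.460 CPM with cyclosporine A and 0.452 CPM with vehicle. The part of these differences in the results below was not tested. Vehicle library 4 was the highest vehicle library for 22 of the 39 tested members, and without it 20 members were higher and 8 lower, the same counts as with all libraries.

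After cyclosporine A, 20 of the 39 tested members rose (51.3%) and 8 fell (20.5%), while 11 did not pass the test (edgeR quasi-likelihood test, Benjamini-Hochberg adjusted p under 0.05 over all 12855 genes). *CPT1C* was not tested, with 2 counts summed over the cyclosporine A libraries and 3 over the vehicle libraries. Across all genes 66.9% were called, 33.3% higher and 33.5% lower. The share of members called (71.8%) was near that background, and their split lay further toward rises. The members were chosen with earlier results of these data known, so this split describes the list and does not test the pathway. The median log2 fold change, cyclosporine A over vehicle, was 0.16 over the tested members and -0.0022 over all genes tested. By log2 fold changes of at least 1, 4 members rose (4.41% of all genes did) and 1 fell (7.75% of all genes did). The groups' CPM did not overlap for 24 of the 39 (61.5%, against 57.9% of all genes). In bulk RNA a change in the number of cells of a kind cannot be told apart from a change in RNA per cell.

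**Figure D1:**
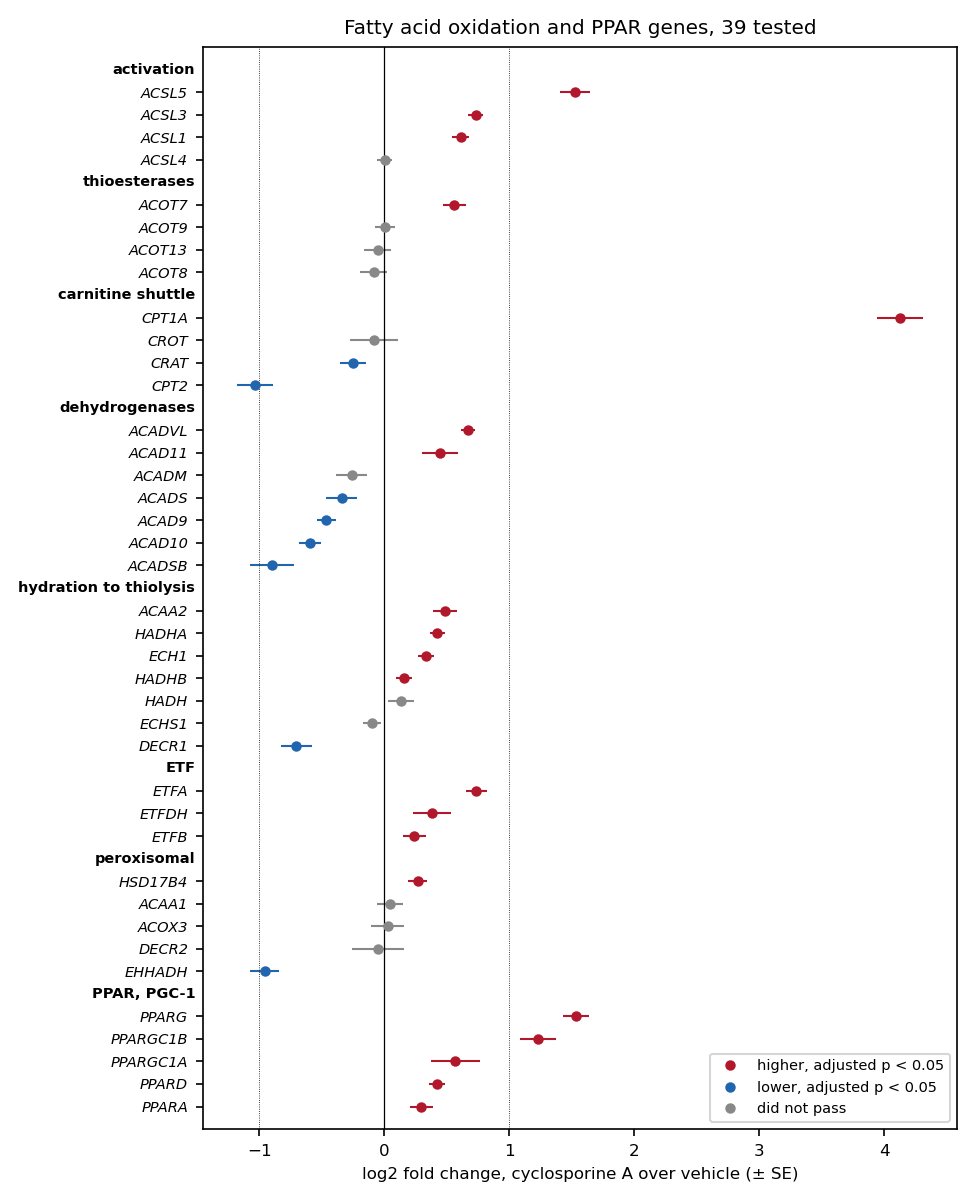
Log2 fold change (cyclosporine A over vehicle, x axis) of the 39 tested members by class; points are estimates from 4 libraries per group, bars are 1 SE, and dotted lines mark 1 and -1. *CPT1A* stands alone at 4.13, all 5 regulators lie to the right of 0, and *CPT2*, *EHHADH* and *ACADSB* are the lowest.

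**Figure D2:**
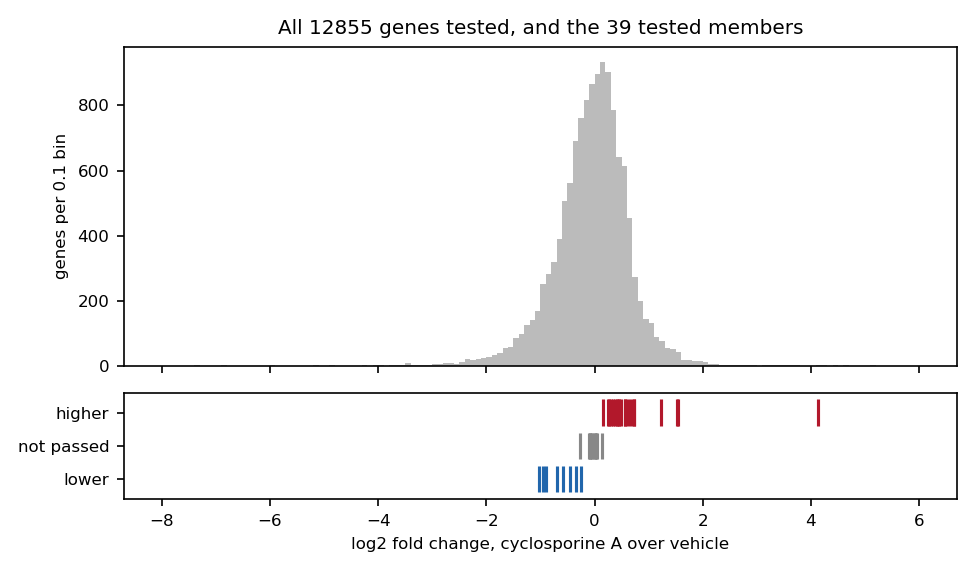
Histogram of the log2 fold change (cyclosporine A over vehicle) of all 12855 genes tested, in bins of 0.1, above a strip with 1 tick for each of the 39 tested members, by outcome. The members span -1.03 to 4.13, and all but *CPT1A*, *ACSL5*, *PPARG*, *PPARGC1B* and *CPT2* lie between -1 and 1.

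Fatty acid activation rose for 3 of 4 synthetases. *ACSL5*, a long-chain acyl-CoA synthetase of mitochondria and endoplasmic reticulum, had 29.0, 31.5, 31.1 and 26.8 CPM in the cyclosporine A libraries and 9.93, 9.94, 11.6 and 9.71 CPM in the vehicle libraries. Every cyclosporine A library was more than 15 CPM above every vehicle library, and the log2 fold change was 1.53 ± 0.12 (SE; edgeR adjusted p = 4.77e-17). *ACSL3*, which works at the endoplasmic reticulum and on lipid droplets, averaged 284 ± 7.13 CPM with cyclosporine A and 170 ± 12.7 CPM with vehicle (SD, n = 4 each), a log2 fold change of 0.73 ± 0.06. *ACSL1*, the main synthetase of liver, fat and heart, averaged 219 ± 13.6 CPM with cyclosporine A and 142 ± 21.4 CPM with vehicle (0.61 ± 0.07). *ACSL4*, which prefers arachidonic acid, was at 252 ± 8.58 CPM with cyclosporine A and 251 ± 15.1 CPM with vehicle and did not pass (0.01 ± 0.06). *ACSL5* overlaps *ZDHHC6* in the genome and *ACSL3* overlaps an antisense gene. Since it is not stated whether counting was by strand, such genes may share reads. The same limit holds for other members that overlap a gene, among them *CPT1A*, *CPT2*, *HADHA*, *ETFDH*, *PPARA*, *PPARGC1A* and *PPARGC1B*.

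The thioesterases, which split acyl-CoA back into free fatty acid and coenzyme A, moved less. *ACOT7*, the cytosolic form, rose to 46.2 ± 4.08 CPM with cyclosporine A, against 31.7 ± 3.72 CPM with vehicle (log2 fold change 0.56 ± 0.09). *ACOT8* of peroxisomes, and *ACOT9* and *ACOT13* of mitochondria, had log2 fold changes between -0.08 and 0.01 and did not pass, with overlapping groups.

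The carnitine shuttle held both the largest rise and the largest fall of the tested members. *CPT1A*, the outer-membrane transferase that makes acylcarnitine and sets the pace of entry into the mitochondrion, had 138, 137, 159 and 102 counts in the cyclosporine A libraries and 13, 7, 11 and 7 counts in the vehicle libraries. In CPM these were 28.4, 33.5, 36.6 and 26.1 with cyclosporine A and 1.84, 1.29, 2.33 and 1.58 with vehicle. The lowest cyclosporine A library lay more than 10 times above the highest vehicle library, the fitted fold was 17.5, and the log2 fold change was 4.13 ± 0.18 (edgeR adjusted p = 7.09e-28), with only 38 reads behind the vehicle level. *CPT2*, the inner-membrane partner that turns acylcarnitine back into acyl-CoA, had 8.64, 7.82, 9.66 and 7.16 CPM with cyclosporine A and 15.9, 18.4, 16.9 and 17.6 CPM with vehicle. The groups did not overlap and *CPT2* fell, with a log2 fold change of -1.03 ± 0.14 (edgeR adjusted p = 7.89e-09); without single libraries it ranged from -1.11 to -0.97. *CRAT*, the transferase for short chains, was at 23.3 ± 1.26 CPM with cyclosporine A and 27.6 ± 2.15 CPM with vehicle (-0.25 ± 0.10), a call that was lost in some settings. *CROT*, the peroxisomal transferase for medium chains, was at 6.18 ± 1.64 CPM with cyclosporine A and 6.51 ± 0.255 CPM with vehicle and did not pass.

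**Figure D3:**
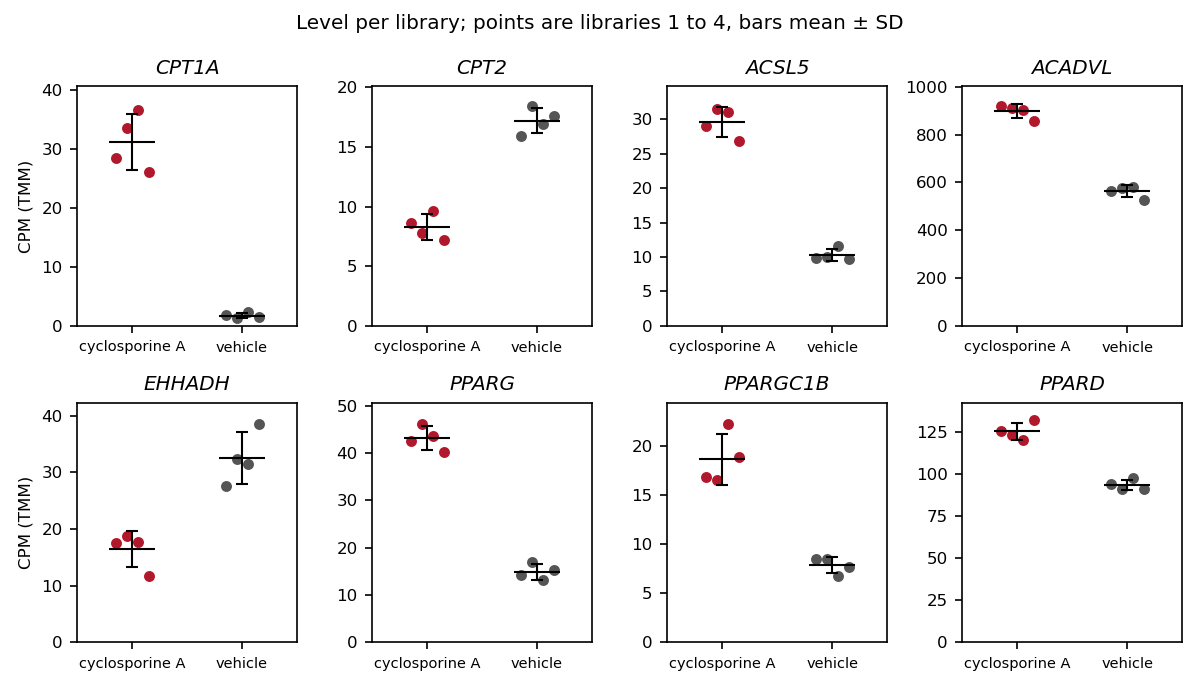
Level in CPM (y axis, from 0) of 8 members in each library, cyclosporine A left and vehicle right; points are the 4 libraries and bars show mean ± SD. The groups are apart in every panel: *CPT1A* lies at 26.1 to 36.6 CPM with cyclosporine A and 1.29 to 2.33 CPM with vehicle, whereas *CPT2* and *EHHADH* are lower with cyclosporine A.

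Among the acyl-CoA dehydrogenases, which take the first oxidative step, the very-long-chain enzyme rose and 4 others fell. *ACADVL*, which acts on very long chains, had 922, 911, 903 and 857 CPM with cyclosporine A and 566, 579, 582 and 526 CPM with vehicle. All cyclosporine A libraries were above all vehicle libraries, and the log2 fold change was 0.67 ± 0.06 (edgeR adjusted p = 6.41e-16). *ACADSB*, which acts on short branched chains from isoleucine, fell to 5.54 ± 0.641 CPM with cyclosporine A, against 10.4 ± 1.73 CPM with vehicle (-0.90 ± 0.18). *ACADS*, for short straight chains, fell by 0.34 ± 0.12 on the log2 scale with overlapping groups, and its call was lost in 3 of 14 settings. *ACAD10* and *ACAD9*, the second of which also helps assemble respiratory complex I, fell by 0.59 ± 0.09 and 0.46 ± 0.08 on the log2 scale. *ACADM*, the medium-chain enzyme, was at 16.4 ± 2.89 CPM with cyclosporine A and 19.6 ± 1.39 CPM with vehicle and did not pass (adjusted p = 0.059). *ACAD11* rose by 0.45 ± 0.14, but its groups overlapped, and it overlaps other genes with which it may share reads. *ACADVL* in turn overlaps *DLG4*.

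Of the 7 genes of the later mitochondrial steps, 4 rose, 1 fell and 2 did not pass. *HADHA* and *HADHB* encode the 2 subunits of the trifunctional protein, which carries out the last 3 steps on long chains. *HADHA* rose to 199 ± 7.06 CPM with cyclosporine A, against 149 ± 6.81 CPM with vehicle (0.42 ± 0.06), and *HADHB* rose to 91.4 ± 2.68 CPM with cyclosporine A, against 82.1 ± 3.32 CPM with vehicle (0.16 ± 0.07), a call lost in 5 of 14 settings. *ACAA2*, the thiolase for shorter chains, rose by 0.49 ± 0.09, and *ECH1*, an isomerase for unsaturated chains, by 0.33 ± 0.06. *DECR1*, the reductase needed for polyunsaturated chains, fell to 12.4 ± 1.12 CPM with cyclosporine A, against 20.2 ± 1.92 CPM with vehicle (-0.70 ± 0.13). *ECHS1*, the short-chain hydratase, and *HADH*, the hydroxyacyl-CoA dehydrogenase of shorter chains, had log2 fold changes of -0.09 ± 0.07 and 0.14 ± 0.11 and did not pass.

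All 3 electron transfer genes, which pass electrons from the dehydrogenases to ubiquinone, rose. *ETFA* reached 62.4 ± 2.83 CPM with cyclosporine A, against 37.7 ± 4.96 CPM with vehicle (0.74 ± 0.08). The companion subunit gene *ETFB* rose by 0.24 ± 0.09 with overlapping groups, and *ETFDH*, encoding the ubiquinone oxidoreductase, rose by 0.38 ± 0.15; both calls were lost in some settings.

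The peroxisomal genes showed no common direction, with 1 higher, 1 lower and 3 that did not pass. The 2 bifunctional proteins that carry the middle steps of peroxisomal oxidation moved apart. *EHHADH*, the L-bifunctional protein, had 17.5, 18.8, 17.7 and 11.8 CPM with cyclosporine A and 27.5, 32.4, 31.5 and 38.6 CPM with vehicle, without overlap (-0.96 ± 0.12, edgeR adjusted p = 3.23e-10). *HSD17B4*, the D-bifunctional protein, rose to 68.5 ± 3.77 CPM with cyclosporine A, against 57.0 ± 4.73 CPM with vehicle (0.27 ± 0.08). *ACAA1*, a thiolase, *ACOX3*, an oxidase of branched chains, and *DECR2*, the peroxisomal reductase, had log2 fold changes from -0.05 to 0.04 and did not pass. *EHHADH* overlaps the antisense gene *EHHADH-AS1*.

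All 5 regulators rose. *PPARG*, encoding PPARγ, best known from fat cells, had 42.6, 46.2, 43.7 and 40.1 CPM with cyclosporine A and 14.2, 16.9, 13.1 and 15.4 CPM with vehicle, a log2 fold change of 1.53 ± 0.10 (edgeR adjusted p = 9.2e-20). *PPARGC1B*, encoding PGC-1β, had 16.9, 16.6, 22.3 and 18.9 CPM with cyclosporine A and 8.51, 8.47, 6.78 and 7.68 CPM with vehicle (1.23 ± 0.14, adjusted p = 6.43e-11). In both genes the groups were far apart, and every cyclosporine A library exceeded every vehicle library by more than the range within vehicle. *PPARD*, encoding the broadly expressed PPARδ, had 126, 123, 120.0 and 132 CPM with cyclosporine A and 94.1, 91.1, 97.4 and 90.8 CPM with vehicle (0.42 ± 0.06), again without overlap. *PPARGC1A*, encoding PGC-1α, a driver of mitochondrial biogenesis, had 7.40, 8.06, 7.36 and 7.16 CPM with cyclosporine A and 4.82, 4.97, 3.60 and 7.0 CPM with vehicle (0.57 ± 0.20, adjusted p = 0.00963). Its vehicle library 4 came close to the cyclosporine A libraries. *PPARA*, encoding the receptor that governs oxidation in liver and proximal tubule, had 38.1, 46.7, 52.2 and 49.1 CPM with cyclosporine A and 37.9, 34.4, 34.9 and 43.8 CPM with vehicle (0.30 ± 0.09, adjusted p = 0.00369). Cyclosporine A library 1 lay within the vehicle range, so the groups overlapped.

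Summed over a class, counts weigh each gene by its read number, not per length. The regulators summed to 241 ± 7.60 CPM with cyclosporine A and 159 ± 4.15 CPM with vehicle, a ratio of 1.52. The ratio was 1.39 for the dehydrogenases, of whose sum *ACADVL* made up 74.2% to 87.2%, 1.38 for electron transfer, 1.37 for activation and 1.30 for the carnitine shuttle. The shuttle's ratio rests on *CPT1A*: without it the class summed to 37.9 ± 1.84 CPM with cyclosporine A and 51.4 ± 1.26 CPM with vehicle, a ratio of 0.738. It was 1.18 for the later mitochondrial steps, 1.09 for thioesterases and 0.973 for peroxisomal oxidation, where the groups overlapped. So the rises of summed level stood beside falls of single genes in the same class, with *CPT2* and 4 dehydrogenases lower.

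**Figure D4:**
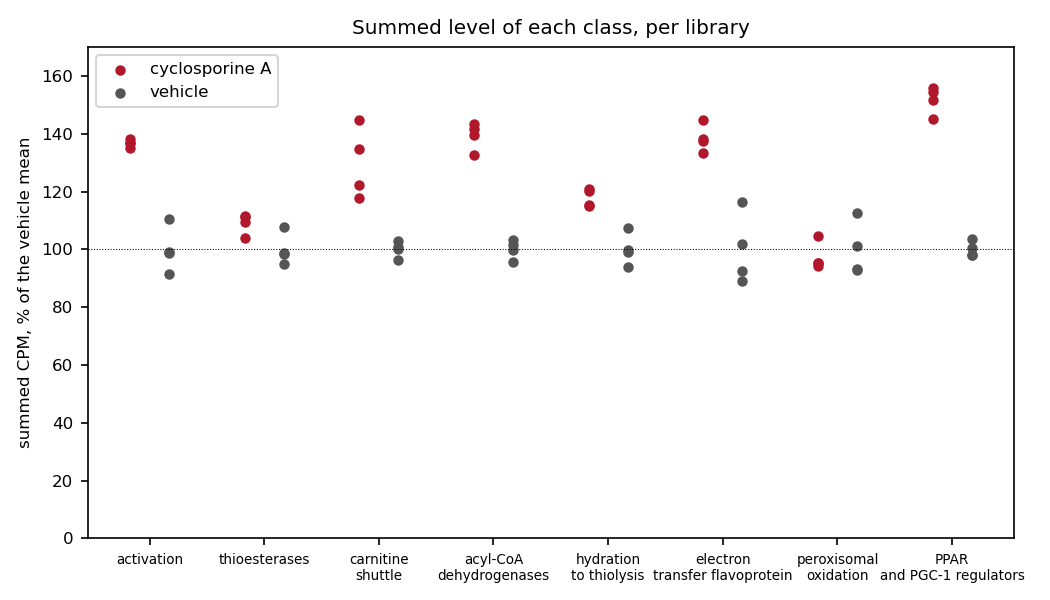
Summed CPM of each class in each library, as a percentage of the vehicle mean (y axis, from 0); cyclosporine A points lie left of vehicle points and the dotted line is 100%. The 2 groups overlap for thioesterases and peroxisomal oxidation and are apart for the other classes.

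Of the members, 18 were higher and 6 lower in the authors' deposited table at the same adjusted p threshold. The 24 members called in both that table and the edgeR fit had the same direction. Both rest on the same mRNA libraries, so the shared direction is no independent support. *CRAT*, *ACADS*, *ETFB* and *ETFDH*, called by edgeR, did not pass there (authors' DESeq2 adjusted p = 0.12, 0.067, 0.055 and 0.086).

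Of 55 listed genes for other oxidation steps, fatty acid uptake and ketone handling, 37 were tested, of which 11 rose (29.7%, against 33.3% of all genes), 15 fell (40.5%, against 33.5%) and 11 did not pass, with a median log2 fold change of -0.18; the number that rose depends on the method and was 6 with DESeq2 and 7 without vehicle library 1. The uptake and activation proteins *SLC27A3* and *SLC27A1* fell by 1.87 ± 0.12 and 0.95 ± 0.09 on the log2 scale, and their relative *SLC27A2* fell to 2.68 ± 0.341 CPM with cyclosporine A, against 9.14 ± 2.77 CPM with vehicle. *AMACR*, the racemase that prepares branched chains for oxidation, fell to 1.59 ± 0.246 CPM with cyclosporine A, against 12.9 ± 1.70 CPM with vehicle (-3.03 ± 0.23). *ECHDC2* fell by 0.96 ± 0.12. Of the most abundant genes that did not pass, *BDH1*, a ketone body dehydrogenase, was at 33.4 CPM with cyclosporine A and 38.4 CPM with vehicle. *SCP2*, a peroxisomal thiolase and sterol carrier, and *ECHDC1* had log2 fold changes of 0.0041 and 0.04. Fatty acid synthesis had 3 of 17 genes higher and 10 lower (median -0.19), against 33.3% and 33.5% of all genes. *ELOVL6* and *ELOVL5*, chain elongases, fell by 1.05 ± 0.07 and 0.90 ± 0.06, *FADS1*, a desaturase, by 0.78 ± 0.06 and *MLXIPL*, a carbohydrate-responsive factor, by 1.21 ± 0.11, while *ME1*, which makes NADPH, rose by 1.10 ± 0.08. The abundant *SCD*, *FASN* and *SREBF1* had log2 fold changes between -0.11 and 0.11 and did not pass.

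Of 29 known PPAR target genes outside the members, 19 were tested, of which 8 rose and 6 fell (median 0.11). Across all genes tested, 33.3% rose and 33.5% fell. *ANGPTL4*, an inhibitor of lipoprotein lipase, *PLIN2*, a lipid droplet protein, and *PDK4*, which restrains pyruvate oxidation, rose by 4.65 ± 0.07, 3.72 ± 0.07 and 3.58 ± 0.14, close to *CPT1A* in size. *PLIN5*, another lipid droplet protein, fell by 4.21 ± 0.21 and *IMPA2* by 0.94 ± 0.09. The targets *SCD*, *G0S2*, a lipase inhibitor, and *MLYCD*, which degrades malonyl-CoA, did not pass. The liver targets *FABP1* and *CYP4A11* had 0 counts. Of the PPAR partners and cofactors, 22 of 25 were tested, of which 10 rose and 5 fell (median 0.20). The background was again 33.3% and 33.5% of all genes. The coactivators *NCOA3*, *CREBBP* and *PPRC1*, the last a PGC-1 relative, rose by 0.67 ± 0.06, 0.65 ± 0.06 and 0.48 ± 0.06, and the AMP kinase subunit *PRKAA2* by 0.70 ± 0.08. The corepressor *NRIP1*, known to restrain oxidation genes in fat and muscle, fell to 281 ± 12.3 CPM with cyclosporine A, against 545 ± 41.4 CPM with vehicle (-0.95 ± 0.06). Another corepressor, *NCOR1*, went the other way and rose (log2 fold change 0.35 ± 0.06), and the PPAR partner *RXRA* fell (-0.23 ± 0.07). *RXRB* and *PRKAA1* did not pass, with log2 fold changes of -0.08 ± 0.06 and 0.06 ± 0.08. Of 17 listed peroxisome genes, *CAT* among them, 16 were tested, 4 higher and 4 lower (median -0.02). Among all genes 33.3% were higher and 33.5% lower. *CAT*, the peroxisomal catalase, and the import factors *PEX19*, *PEX5* and *PEX14* rose by 0.87 ± 0.09, 0.60 ± 0.08, 0.41 ± 0.07 and 0.39 ± 0.09, and *PEX10* fell by 0.49 ± 0.09. *PEX26*, *PEX6* and *PEX13* did not pass. The 5 lists of further genes share members: 15 of their 128 genes, among them *CAT*, are in more than 1 list.

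**Figure D5:**
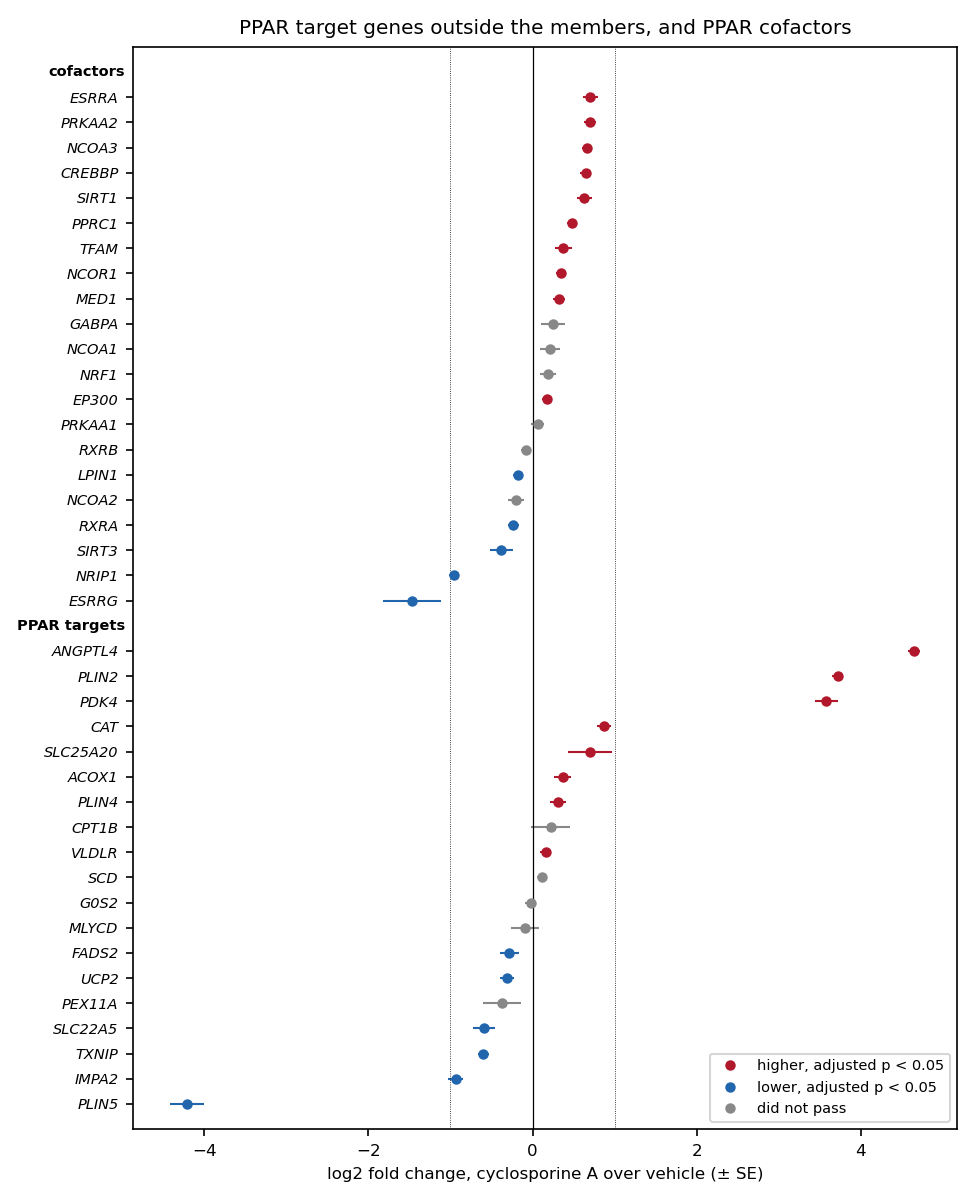
Log2 fold change (cyclosporine A over vehicle, x axis) of PPAR cofactors and known PPAR target genes that are not members; points are estimates from 4 libraries per group and bars are 1 SE. *ANGPTL4*, *PLIN2* and *PDK4* lie between 3.58 and 4.65 and *PLIN5* at -4.21, while the other genes plotted lie between -1.47 and 0.87.

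Of 470 miRNAs tested, 11.3% were called, 4.89% higher and 6.38% lower. Of 18 miRNAs listed for known links to these genes, 15 were tested, of which 2 rose, 1 fell and 12 did not pass. miR-27a-3p, known to act on *PPARG* mRNA, had 2856 ± 166 CPM with cyclosporine A and 2170 ± 234 CPM with vehicle (SD, n = 4 each), without overlap (log2 fold change 0.40 ± 0.11, edgeR adjusted p = 0.0235). miR-23a-3p, encoded beside it on chromosome 19, rose by 0.46 ± 0.14 (edgeR adjusted p = 0.0429), though its groups overlapped. miR-10b-5p fell by 0.39 ± 0.11 (edgeR adjusted p = 0.0319), without overlap. None of these 3 calls remained when vehicle miRNA library 1 or 3 was left out. miR-33a-5p, known to act on *CPT1A*, *CROT* and *HADHB*, was at 16.6 ± 4.31 CPM with cyclosporine A and 16.7 ± 3.43 CPM with vehicle and did not pass; miR-33b-5p was not tested, at under 1 CPM in both groups on average. miR-378a-3p, which lies within *PPARGC1B* and is known to act on *CRAT* in mouse, was at 773 ± 67.2 CPM with cyclosporine A and 741 ± 62.3 CPM with vehicle and did not pass (0.06 ± 0.11), whereas *PPARGC1B* mRNA had risen by 1.23.

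In the AGO2 lists, 21 of the 40 members (52.5%) had a cluster with cyclosporine A, against 42.0% of all tested genes, and 28 (70.0%) had one with vehicle, against 52.5%; in the list for all Argonaute proteins 14 did (35.0%, against 27.3%). There were 51 member clusters with cyclosporine A and 78 with vehicle, of which 27 overlapped between the lists, 52.9% of the cyclosporine A clusters and 34.6% of the vehicle clusters. Most were intronic, 41 of 51 with cyclosporine A and 64 of 78 with vehicle, and 19 of the 47 member clusters with a known orientation with cyclosporine A and 27 of 68 with vehicle lay antisense to the gene. Clusters in a 3′ UTR, exon, 5′ UTR or transcript end were found in 7 members (17.5%) with cyclosporine A, against 11.7% of all tested genes, in 7 (17.5%) with vehicle, against 16.6%, and in 2 (5.0%) in the list for all Argonaute proteins, against 5.32%. *PPARGC1A* held the most clusters, 13 with cyclosporine A and 18 with vehicle. They were spread from chr4:23836239 to chr4:24474801 (hg19). All were intronic except a promoter cluster with vehicle, and some lay antisense. Gene length was not taken into account in these counts or in the shares of members with a cluster. A 3′ UTR cluster was found in 2 members with cyclosporine A, *PPARA* (sense) and *PPARD* (antisense), and in *PPARD* alone with vehicle.

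The *CPT1A* 3′ end cluster printed above had the authors' score of 2945 with cyclosporine A, in the 97.8 percentile of that list, and 634 with vehicle, in the 94.3 percentile. No source used here gives the unit of this score; scores were therefore ranked only within a list, and ranks from lists of different lengths show no change. TGAATGT was in 104 clusters (0.283%) of the cyclosporine A list and in 157 (0.276%) of the vehicle list. Of 140 miRNAs of at least 100 CPM in either group at 48 h, 127 had a RefSeq sequence, and the others were not searched. The complements of their 92 seeds were searched in the members' sense AGO2 clusters, which are from 24 h. A match was found in 5 of 28 with cyclosporine A (17.9%, against 9.31% of all clusters in that list) and in 5 of 41 with vehicle (12.2%, against 9.47%), at 7 distinct loci over both lists. The shares of all clusters cover every cluster whatever its orientation or annotation, so they are not of like kind with the member shares. *PPARGC1A*, with the most clusters, held matches in both lists. An exon cluster assigned to *ACOT8* accounts for 1 match in each list and is also among the exon and UTR counts above; whether its reads come from that gene was not tested. miR-181a-5p and miR-181b-5p, named after this match was seen, did not change past the threshold. miR-181a-5p had 6104, 5680, 5283 and 4438 CPM with cyclosporine A and 4377, 4918, 4077 and 4609 CPM with vehicle (log2 fold change 0.26 ± 0.11, edgeR adjusted p = 0.168). miR-181b-5p had 3147 ± 399 CPM with cyclosporine A and 3125 ± 159 CPM with vehicle (adjusted p = 0.978). The groups overlapped for both.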

How the data were processed

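The submitters' processing notes name build hg19 and the tools TopHat, Bowtie, HTSeq, cutadapt, DESeq2 and CASAVA 1.8.2, with no settings and nothing on strand. Raw mRNA and miRNA counts were deposited by the authors. The authors' deposited table of their own comparison gives log2 fold changes and p-values, used only for shared calls. The deposited PAR-CLIP lists give a position, annotation, sequence and score per cluster, with the 2 libraries of a treatment pooled in 1 list; the score was used only for ranks within a list. AGO2 cluster sequences were read as RNA sense: of 36 and 49 minus-strand miRNA clusters with cyclosporine A and vehicle, 4 and 5 matched a hairpin as given and 0 reversed. Sequences of the all-Argonaute list were not used, since their length equalled the interval in 2692 of 19306 clusters.

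A quasi-likelihood test of treatment alone was run in edgeR 4.0.16 (R 4.3.3) after filterByExpr and TMM scaling, with Benjamini-Hochberg adjustment over all genes tested. SEs of log2 fold changes were derived from F statistics, and levels are TMM-scaled CPM. Total miRNA counts ranged from 7045150 to 9184278 with cyclosporine A and from 6664231 to 7888220 with vehicle; 2586 miRNAs are listed. Alternatives were DESeq2 1.42.0, other scaling, other filters, a replicate block and leaving out each library. The members and lists were chosen with earlier results of these data known. Values are given in full for members with a called log2 fold change of at least 1 and for the regulators. The members *ACADVL* and *EHHADH*, and the cofactors *NCOR1* and *RXRA*, were added after their values were seen. In other lists the 5 smallest p-values and up to 3 abundant genes that did not pass are named. A few genes chosen this way go unnamed and are not reported here, though list counts cover them. Coordinates are 1-based. The scripts were tested on simulated data.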

Additional observations from a re-analysis of the deposited data

Results flagged for a closer look

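Single libraries stood apart from the other 3 of their group in 4 of the 108 groups of values examined, by Dixon's test for a gap at one end; chance alone gives about 5%. *ACSL3* was at 189 CPM in vehicle library 1, against 162 to 166 CPM in the other vehicle libraries, which leaves all of them below the cyclosporine A libraries. *ACSL5* was at 11.6 CPM in vehicle library 3, against 9.71 to 9.94 CPM in the others. *ACAA1* was at 22.0 CPM in vehicle library 3, against 27.8 to 28.9 CPM in the others. The summed peroxisomal level was 143 CPM in cyclosporine A library 2, against 129 to 130 CPM in the others.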

How the results depend on the processing

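Of the 28 called members, 22 kept their call in all 14 settings run, 6 lost it in at least 1 (*CRAT*, *ACADS*, *ACAD11*, *HADHB*, *ETFB* and *ETFDH*) and 0 changed direction; the cause was not tested. *ACADM*, which did not pass, was called lower with library size alone, and also without vehicle library 3 or cyclosporine A library 2. DESeq2 called 18 members higher and 6 lower, and scaling by library size alone 17 and 9. The other oxidation, uptake and ketone genes gave 6 higher with DESeq2 and 7 with library size alone. Leaving *CPT1A* out, chosen after seeing the data, turned the carnitine shuttle ratio to 0.738. Library size alone gave ratios of summed level of 1.32 for activation, 1.05 for thioesterases, 1.34 for dehydrogenases, 1.14 for later mitochondrial steps, 1.33 for electron transfer and 1.46 for regulators, and turned the log2 fold change of *ACSL4* to -0.0471, *ACOT9* to -0.0450, *ACAA1* to -0.00653 and *ACOX3* to -0.0212, none of which passed. miR-33a-5p was at 0.000625 with DESeq2 and 0.00453 without a filter. Clusters in the 3′ UTR alone were in 2, 1 and 0 members for the cyclosporine A, vehicle and all-Argonaute lists, and 8 members had an all-Argonaute cluster above the median score.

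Leaving out single libraries gave 17 to 20 members higher and 6 to 9 lower, 7 to 9 other oxidation genes higher, ratios of 1.33 to 1.42 for activation and 1.33 to 1.47 for electron transfer, 29 (without vehicle library 3) to 58 miRNA calls and 0 to 2 calls in the miRNA list. Log2 fold changes then ranged from -0.14 to 0.015 for *ACOT13*, -0.22 to 0.075 for *DECR2*, -0.030 to 0.032 for *ACSL4*, -0.061 to 0.075 for *ACOT9*, -0.036 to 0.098 for *ACAA1*, -0.27 to 0.031 for *CROT*, -0.0080 to 0.067 for *ACOX3*, -0.13 to 0.14 for miR-33a-5p and -0.048 to 0.11 for miR-181b-5p, and none of these passed.

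With the replicate number as a block, 28 members, 8486 genes and 92 miRNAs were called, against 28, 8597 and 53 without it. Correlations of deviations between libraries of the same number were -0.084, 0.010, -0.056 and 0.033 for mRNA and 0.042, 0.338, -0.060 and 0.153 for miRNA. Not every library correlated best with its own number, and the numbers were not taken as pairs in either assay. For miRNA, 0.338 was the highest of all the correlations and the block raised the calls. Whether miRNA libraries of the same number belong together was therefore not settled. Counts as low as those of *CPT1A* in vehicle limit the precision of its fold.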
